A study of Mus musculus with 6 samples.

Results

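The genes described here encode 5 ligands that testis cells offer to spermatogonial stem cells and their neighbours (Gdnf, Fgf2, Csf1, Kitl and Cxcl12) and 5 receptors for such ligands (Fgfr1, Fgfr2, Fgfr3, Csf1r and Cxcr4). They were taken by name and make up 10 of the 21440 protein-coding genes whose 5′ end could be placed. For each gene, every ATAC-seq peak was collected that touched the stretch from 10 kb upstream of the 5′ end to 10 kb past the 3′ end, called its window. Peaks of the 6 libraries that overlapped were merged into regions, and 77 of the 158725 regions found across the genome touched one of these windows. Peaks within 3 kb of the 5′ end were counted as promoter peaks.

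ATAC-seq maps open chromatin by letting the Tn5 transposase insert sequencing adapters into accessible DNA. It was run on 50000 cells per library from the testes of male mice at postnatal day 5, both genotypes on the same inbred background, in 3 libraries from Sirt7-/- mice (S7KO) and 3 from wild-type mice (WT), numbered 1, 2 and 4 in each genotype. Sirt7 encodes a nuclear deacetylase that acts on histone H3, and the S7KO mice lack it in every cell, so the supporting cells that make most of these ligands carried the deletion as well. Cells were untreated, and were enriched for spermatogonia by plating steps that remove somatic cells, not sorted. The study calls the libraries independent biological replicates, although which animals gave which library is not given in the sources used here.

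The lists held between 105754 peaks (WT 2) and 133695 peaks (WT 4), and the median peak was 614 to 681 bp wide. The number of reads behind each list is unknown. A gene with fewer peaks in WT 2 therefore has to be read beside the length of that list. Sirt7 itself had a promoter peak in all 6 libraries and 21.9% to 24.7% of its window under peaks in S7KO against 22.8% to 24.2% in WT, which does not check the deletion.

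As background, the niche is the set of cells and signals that decides whether a spermatogonial stem cell renews itself or differentiates. GDNF, made by Sertoli and peritubular cells, acts through GFRA1 and RET on undifferentiated spermatogonia, and FGF2 acts beside it through FGF receptors. CSF1 comes from Leydig and peritubular cells and binds CSF1R, a receptor best known from macrophages. KITL, the Sertoli cell ligand of the receptor KIT, drives the differentiating spermatogonia, and CXCL12 draws CXCR4-bearing germ cells to the niche and holds them there.

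Each of these genes had a called peak within 3 kb of its 5′ end in every library, in a range of sequence settings. RefSeq gave the bases just upstream of a transcription start (GRCm38.p6) for 8 of the 10 genes, and all the stretches of 250 bases lay under peaks of all 6 libraries. Shown here are the most and the next most strongly called promoters (Csf1 and Kitl), a weakly called one (Gdnf), the one with the fewest CpG dinucleotides (Fgfr2) and that of a chemokine receptor (Cxcr4). Each is written 5′ to 3′ along the strand of the gene, and capitals mark the letters GGGCGG (a GC box), TATAAA and CCAAT on either strand, overlapping matches included. The Csf1 stretch is chr3:107760470-107760719 (minus strand), the Kitl stretch chr10:100015571-100015820 (plus), the Gdnf stretch chr15:7809798-7810047 (plus), the Fgfr2 stretch chr7:130266809-130267058 (minus) and the Cxcr4 stretch chr1:128592300-128592549 (minus). The Kitl stretch reaches past the outermost 5′ end of the gene, because the RefSeq start it belongs to lies inside it.
Csf1: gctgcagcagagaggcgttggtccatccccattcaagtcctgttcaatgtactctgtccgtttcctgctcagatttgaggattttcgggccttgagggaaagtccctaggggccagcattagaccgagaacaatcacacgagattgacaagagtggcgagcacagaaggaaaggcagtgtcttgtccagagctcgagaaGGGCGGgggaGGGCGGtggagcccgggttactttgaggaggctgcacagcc
Kitl: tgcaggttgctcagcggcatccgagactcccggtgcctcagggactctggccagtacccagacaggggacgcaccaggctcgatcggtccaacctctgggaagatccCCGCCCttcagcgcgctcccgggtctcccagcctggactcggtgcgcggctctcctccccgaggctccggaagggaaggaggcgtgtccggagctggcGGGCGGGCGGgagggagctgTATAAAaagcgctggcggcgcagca
Gdnf: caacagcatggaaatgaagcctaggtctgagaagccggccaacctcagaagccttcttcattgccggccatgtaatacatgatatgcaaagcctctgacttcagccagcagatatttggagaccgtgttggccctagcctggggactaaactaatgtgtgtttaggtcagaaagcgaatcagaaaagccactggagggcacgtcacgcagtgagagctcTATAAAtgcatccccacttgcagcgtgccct
Fgfr2: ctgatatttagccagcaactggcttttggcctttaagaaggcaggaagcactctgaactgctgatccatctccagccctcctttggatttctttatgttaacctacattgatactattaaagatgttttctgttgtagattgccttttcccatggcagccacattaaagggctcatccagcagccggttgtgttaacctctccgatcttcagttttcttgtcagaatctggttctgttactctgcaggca
Cxcr4: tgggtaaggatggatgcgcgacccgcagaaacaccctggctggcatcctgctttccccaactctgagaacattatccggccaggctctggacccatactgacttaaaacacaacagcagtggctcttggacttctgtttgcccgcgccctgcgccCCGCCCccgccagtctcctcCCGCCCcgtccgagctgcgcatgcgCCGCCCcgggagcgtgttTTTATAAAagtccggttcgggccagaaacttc

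The Kitl stretch held 23 CpG dinucleotides, more than 86.7% of the 32851 mouse promoter stretches of the same length, with 3 matches to the GC box and 1 to TATAAA. The Csf1 stretch held 10 CpG and 2 GC boxes, although its peak was the more strongly called. The Gdnf stretch held 7 CpG, no GC box and 1 TATAAA close to its 3′ end, and a stretch upstream of another Gdnf start (chr15:7813477-7813726, plus strand) held 14 CpG and 1 CCAAT. The Fgfr2 stretch held 2 CpG and none of the letters searched, and only 18.8% of all promoters had fewer CpG. In Cxcr4 there were 19 CpG, 3 GC boxes and 2 overlapping TATAAA matches, 1 on each strand. Among the stretches not printed, Fgf2 had 20 CpG, Cxcl12 had 14, and the starts of Fgfr3 had 19 and 24. Over all promoters the median was 6 CpG, and 32.7% held a GC box, 12.4% TATAAA and 33.8% CCAAT. A match to these letters is a description of the sequence and not evidence of a bound factor.

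All 10 genes had a promoter peak in all 6 libraries, against 74.0% of protein-coding genes. None had a promoter peak in all S7KO and no WT libraries (0.0280% of all genes did), and none had the opposite pattern (0% of all genes). To place each promoter within its own library, peaks were ranked by the −log10 q-value that the peak caller assigned, so that a low percentage marks a strong peak and 100% the weakest of the list. By this rank the 10 genes had a median of 18.6%, against 8.04% for all genes with a promoter peak in every library.

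**Figure D1:**
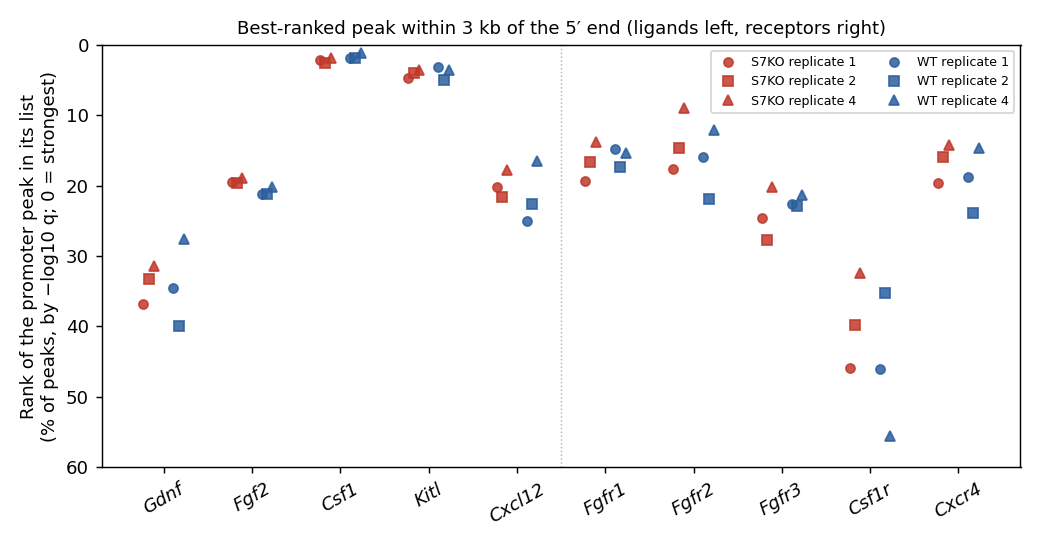
Rank of the best promoter peak of each gene within its own peak list (vertical axis, percent of peaks by −log10 q, strongest at the top), with 1 point per library, S7KO in red and WT in blue. Csf1 and Kitl lie at the top in all 6 libraries, and Csf1r lies lowest, between 32.5% and 55.5%.

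Csf1 had the strongest promoter of the group, with a median rank of 1.94% and a range of 1.13% to 2.57%. Kitl came next at 3.84% (3.13% to 4.99%), and neither range touched its neighbour. The others followed in ranges that overlapped those of their neighbours. Fgfr2 had a median of 15.3%, Fgfr1 of 16.1%, Cxcr4 of 17.3%, Fgf2 of 19.9%, Cxcl12 of 20.9% and Fgfr3 of 22.7%. Gdnf at 33.9% (27.6% to 39.9%) and Csf1r at 42.9% (32.5% to 55.5%) had the weakest promoters. In 7 of the 9 pairs of neighbours in this order the ranges overlapped. Compared within each library, Fgfr3 still ranked ahead of Gdnf in all 6. Cxcl12 ranked ahead of Fgfr3, and Gdnf ahead of Csf1r, in 5 of 6. The other overlapping pairs kept their order in 4 of 6 libraries, so the order among those genes was not resolved. The peak caller averages its values over a broad peak, and the part that peak width had in these ranks was not tested.

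**Figure D2:**
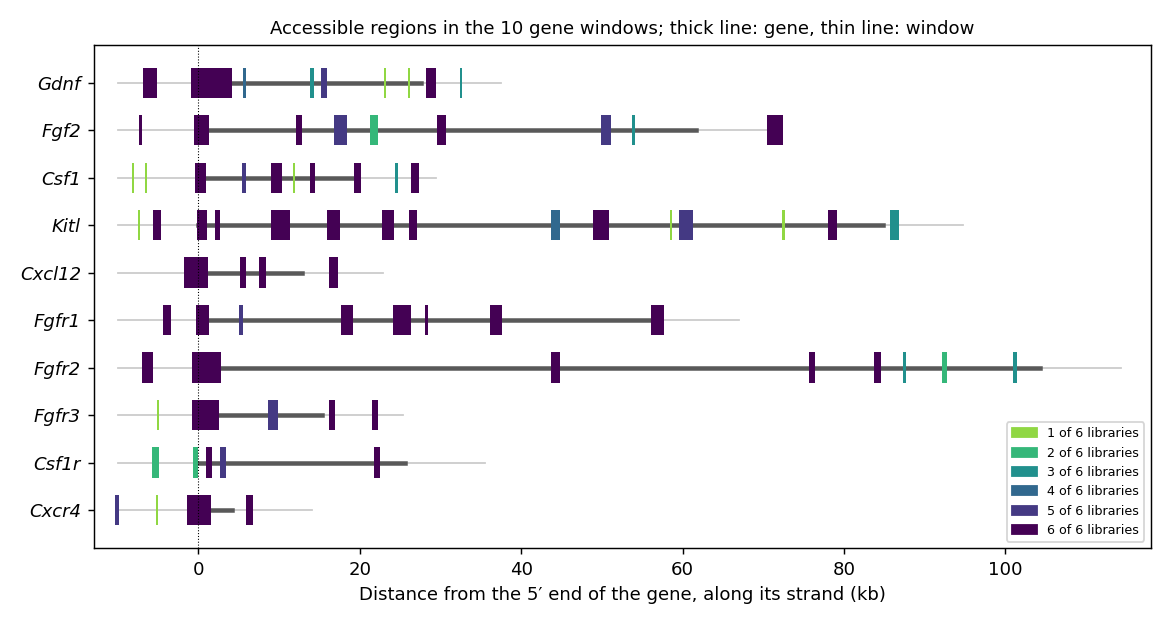
Accessible regions in the windows of the 10 genes, by distance from the 5′ end along the gene's strand (horizontal axis, kb), coloured by the number of libraries with a peak. Narrow regions are drawn at a minimum width of 0.25 kb, the thick line is the gene and the thin line its window. The 5′ ends are covered by regions called in 6 of 6 libraries except at Csf1r.

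Away from the promoters the genes differed in how constant their open regions were. Of the 77 regions, 45 were called in all 6 libraries (57.1% of all regions were), 9 in 5, 2 in 4, 7 in 3, 4 in 2 and 10 in 1 library. Regions called everywhere were wide, with a median of 1127 bp against 472 bp for the rest. The same held across the genome, where the medians were 1058 and 391 bp. Promoter regions were the most constant class, with 11 of 13 called in all 6 libraries, followed by 7 of 10 regions past the 3′ end, 22 of 42 in the gene body and 5 of 12 in the upstream flank. By role, 26 of 47 ligand regions and 19 of 30 receptor regions were called in all 6. Shares by class were not counted over all regions of the genome, so these counts are not set apart from other genes. The regions called in 1 library belonged to WT 4 (5 regions), S7KO 4 (3 regions) and S7KO 1 (2 regions). Of the 9 regions called in 5 libraries, 6 were missing only from WT 2, the library with the shortest list.

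Gdnf, the self-renewal signal for spermatogonial stem cells, had the widest promoter region of the group. It measured 5049 bp (chr15:7809122-7814170), ran from -926 to 4122 bp relative to the 5′ end, and spanned both RefSeq starts. The peak was 4636, 5014 and 4588 bp wide in S7KO 1, 2 and 4 and 4126, 4548 and 4580 bp wide in WT 1, 2 and 4. Widths of the genotypes thus lay side by side, with S7KO 2 the widest. Outside the promoter the widest region was 1737 bp long in the upstream flank (chr15:7803214-7804950), and another constant region lay past the 3′ end (chr15:7838219-7839549). Both flanking regions were called in all 6 libraries. The other 6 Gdnf regions were called in 1 to 5 libraries.

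Fgf2, a growth factor that supports spermatogonia in culture, had a promoter region of 1842 bp (chr3:37347936-37349777). The antisense transcript Fgf2os overlaps it, and ATAC-seq has no strand, so the opening cannot be given to either gene by strand. The region covered the 5′ end of Fgf2, while no library had a peak over the 5′ end of Fgf2os (chr3:37349841). Its widest other region, chr3:37418953-37420919, ranked between 1.43% and 2.48% in the 6 lists and held the 5′ ends of Nudt6 and Spata5. That strong peak lay past the 3′ end of Fgf2 and at the start of neighbouring genes. Of the 9 regions in the window, 5 were called in all libraries.

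Csf1 had 10 regions and Kitl 15, the most of the group. The Csf1 promoter region (chr3:107759505-107760916) was 1412 bp wide. The widest region inside Csf1, chr3:107750130-107751492, was called in all 6 libraries with peaks of 343 to 1309 bp. A narrower one over the 3′ end of the gene (chr3:107740379-107741223) ranked between 5.44% and 7.72%, next in strength to the promoter. The long noncoding RNA Gm40121 spans the whole Csf1 window. The merged Kitl regions spanned 1301 bp at its promoter (chr10:100015409-100016709) and 2434 bp in the gene body (chr10:100024560-100026993). In that gene body region the widest peak was 2161 bp in WT 1 and 713 to 886 bp in the other libraries. In all, 9 of the 15 Kitl regions were called in every library, and 3 more were called in WT 4 alone.

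Cxcl12, the chemokine, was the most constant ligand. Its 4 regions were each called in all 6 libraries, with a promoter region of 3013 bp (chr6:117166760-117169772) and a widest other region past the 3′ end (chr6:117184702-117185828).

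Among the receptors, Fgfr1 had 7 of its 8 regions in all 6 libraries. Its promoter region was 1547 bp wide (chr8:25518475-25520021), and its widest region overall lay in the gene body (chr8:25542877-25545121), where peaks of 749 to 2192 bp were called. A further gene body region, chr8:25554874-25556399, held the 5′ end of the long noncoding RNA Gm16159 and ranked between 8.89% and 16.2%. Fgfr2 opened over 3641 bp at its promoter (chr7:130263969-130267609) and over 1395 bp in the upstream flank (chr7:130272464-130273858). The rest of this gene, the longest of the group at 104 kb, held 6 regions, and peaks of every library met in 3 of them. Fgfr3 had a promoter region of 3319 bp (chr5:33720935-33724253), and its widest other region (chr5:33730349-33731580) was called in every library except WT 2.

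Csf1r, the receptor for CSF1, differed from the rest in where its promoter peaks lay. The region over its annotated 5′ end (chr18:61104837-61105575) was called only in S7KO 4 and WT 4, at ranks of 92.8% and 74.0%. A region from 884 to 1688 bp into the gene (chr18:61106456-61107260) was called in all 6 libraries and carried the promoter rank of this gene. It ranked 45.9%, 39.8% and 32.5% in S7KO 1, 2 and 4 and 46.0%, 35.3% and 55.5% in WT 1, 2 and 4. The values of the genotypes were interleaved. A region near the 3′ end of the gene (chr18:61127345-61128118) ranked between 12.0% and 29.7%, ahead of the promoter peak in all 6 lists. The widest region of Csf1r away from the promoter was in the upstream flank (chr18:61099833-61100645) and was called, like the 5′ end, only in S7KO 4 and WT 4. Cxcr4, the CXCL12 receptor, was the shortest gene of the group at 4.101 kb. Its promoter region of 2963 bp (chr1:128590792-128593754) ran to 1507 bp inside the gene, and its widest other region lay past the 3′ end (chr1:128585542-128586391).

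**Figure D3:**
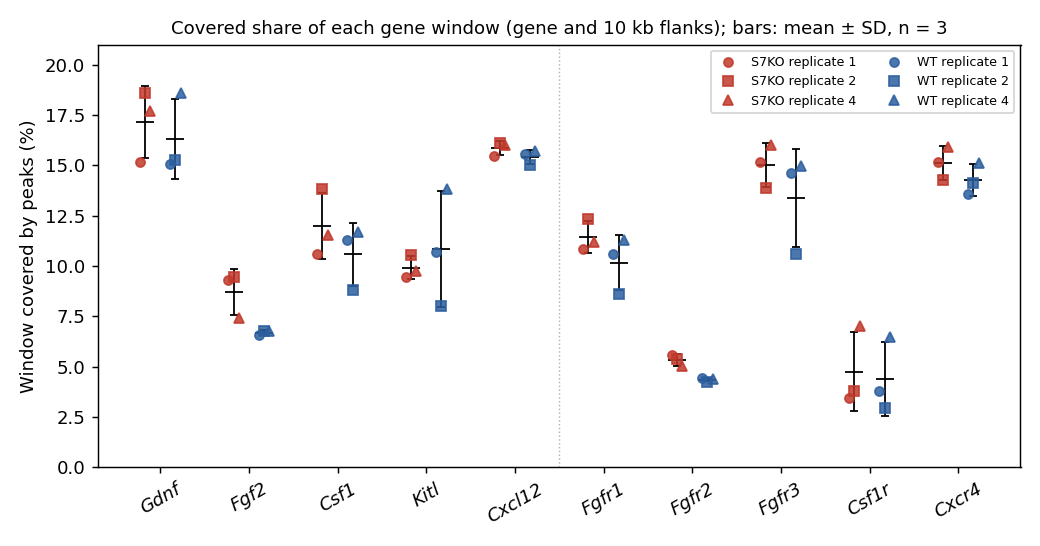
Share of each gene's window under peaks (vertical axis, percent) in the 6 libraries, with S7KO in red and WT in blue, and black bars giving mean ± SD of 3 libraries. The genotypes overlap in 8 genes, while the S7KO points of Fgf2 and Fgfr2 all lie above the WT points.

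Turning to the loss of SIRT7, the question was whether open chromatin around the niche genes differed between the genotypes. Summed over the 10 windows, 61, 61 and 68 peaks were called in S7KO 1, 2 and 4 and 56, 55 and 67 in WT 1, 2 and 4. The means were 63.3 ± 4.04 and 59.3 ± 6.66 (SD, n = 3 each), a difference of 4 peaks that lay within the spread of the replicates (exact two-sided permutation test, p = 0.5, Benjamini-Hochberg adjusted p = 0.75 over 3 tests). Peaks covered 9.78%, 10.5% and 10.1% of the 613 kb of window in S7KO 1, 2 and 4 and 9.33%, 8.17% and 10.5% in WT 1, 2 and 4. The lowest value was that of WT 2 and the highest belonged to WT 4 and S7KO 2. The means were 10.1% ± 0.383 and 9.35% ± 1.191 (SD, n = 3 each, exact permutation p = 0.4, adjusted p = 0.75). All 10 genes had a promoter peak in each library, so that count did not differ (p = 1 by the exact permutation test). With 3 libraries a side the exact permutation test cannot go below p = 0.1.

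The difference in covered share rested partly on WT 2. Without that library it was 0.213 percentage points in place of 0.803, and without WT 4 it was 1.40. The difference in peaks was 1.83 without WT 2, 1.67 without S7KO 4 and 7.83 without WT 4. By role, ligand windows were covered to 11.6% ± 0.778 in S7KO and 11.0% ± 1.48 in WT, and receptor windows to 8.67% ± 0.282 and 7.65% ± 0.920 (SD, n = 3 each). Over the 10 genes the median difference was 0.909 points, beside 0.269 over all protein-coding windows. The windows of the 10 genes were also the more covered, at a median of 11.1% against 6.91%, and the differences were not scaled to that. In a mixed sample, fewer open cells of a type and less open chromatin per cell cannot be told apart.

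No region of these genes was called in all S7KO and no WT libraries, a pattern that 0.416% of all regions showed, and none was called in all WT and no S7KO libraries (0.0743% of all regions). More covered sequence in every S7KO than in any WT library was seen in 2 of the 10 genes, Fgf2 and Fgfr2 (6.35% of all genes). None had more in every WT library (0.508% of all genes).

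Fgf2 was covered to 9.33%, 9.45% and 7.41% in S7KO 1, 2 and 4 and to 6.56%, 6.78% and 6.76% in WT 1, 2 and 4. All S7KO values lay above the tightly grouped WT values, with S7KO 4 nearest to them. The mean difference was 2.03 points (8.73% ± 1.15 against 6.70% ± 0.122, SD, n = 3 each). Region by region, the promoter peak was about as wide in both genotypes, at 1649 to 1721 bp in S7KO and 1532 to 1765 bp in WT. The gap lay in the gene body. At chr3:37369724-37370768 a peak was called only in S7KO 2 (1045 bp) and S7KO 4 (258 bp). At chr3:37398412-37399657 the peak was 989, 1035 and 518 bp wide in S7KO 1, 2 and 4, against 229 and 467 bp in WT 1 and WT 2 and no call in WT 4. At chr3:37365336-37366906 the peak of S7KO 1 was 1502 bp wide and the others were 676 to 823 bp, with none in WT 2. All these peaks ranked in the weaker part of their lists, between 63.8% and 98.6%.

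Fgfr2, a receptor for FGF ligands, was covered to 5.60%, 5.37% and 5.01% in S7KO 1, 2 and 4 and to 4.44%, 4.26% and 4.39% in WT 1, 2 and 4. The lowest S7KO value lay above the highest WT value, and the mean difference was 0.960 points (5.32% ± 0.294 against 4.36% ± 0.0930, SD, n = 3 each). Different regions made up the excess in different libraries. In S7KO 1 the promoter peak was 3626 bp wide, against 2469 to 2569 bp in the other 5 libraries. In S7KO 2 the region chr7:130221985-130223073 held a peak of 1089 bp, against 225 to 320 bp elsewhere. A peak at chr7:130173985-130174699 was called only in S7KO 1 (703 bp) and S7KO 4 (705 bp).

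**Figure D4:**
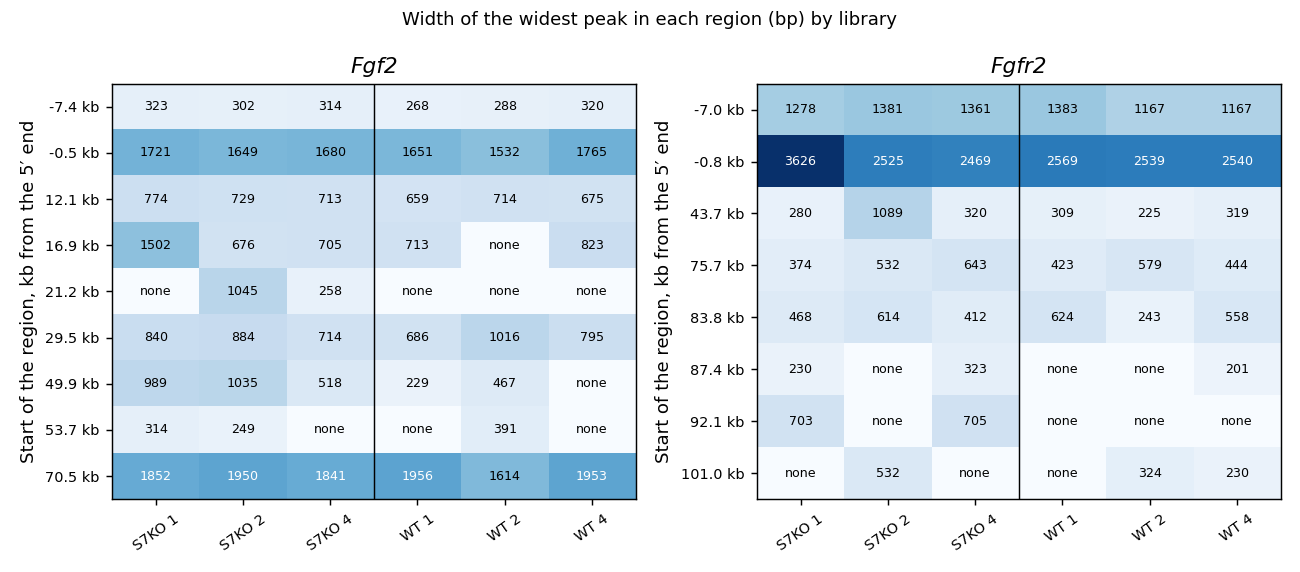
Width in bp of the widest peak in each region of the Fgf2 window (left) and the Fgfr2 window (right), by library, with regions named by the distance of their start from the 5′ end in kb. The promoter rows are alike in most libraries. Some gene body rows hold wider or additional peaks in the S7KO columns (left of the line), such as 1045 bp in S7KO 2 where no WT library had a call in Fgf2. Other gene body rows are widest in a WT library, such as 1016 bp in WT 2 at chr3:37378008-37379098 in Fgf2.

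Neither gene stayed separated when each list was limited to its 105728 strongest peaks, as many as the shortest list held. Fgf2 was then covered to 7.49%, 8.62% and 5.91% in S7KO 1, 2 and 4 and to 5.40%, 6.78% and 5.75% in WT 1, 2 and 4, and Fgfr2 to 5.03%, 4.94% and 3.93% against 4.27%, 4.26% and 3.79%. In both genes S7KO 4 then lay within the range of WT.

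In the other 8 genes the covered shares of the genotypes overlapped. Kitl was the only gene with a higher mean in WT, at 10.8% ± 2.90 against 9.93% ± 0.552 in S7KO (SD, n = 3 each). Its WT values were 10.7%, 8.04% and 13.8% in replicates 1, 2 and 4, a wider spread than the S7KO values of 9.47%, 10.5% and 9.77%. Kitl also had 16 peaks in WT 4, its highest number, and 11 to 13 in the other libraries. Csf1r ranged from 3.44% to 7.02% in S7KO and from 2.94% to 6.46% in WT, with the replicates numbered 4 the highest in both genotypes. For the remaining genes the means in S7KO and WT were 17.1% and 16.3% for Gdnf, 12.0% and 10.6% for Csf1, 15.9% and 15.4% for Cxcl12, 11.5% and 10.2% for Fgfr1, 15.0% and 13.4% for Fgfr3, and 15.1% and 14.3% for Cxcr4. Their SDs ran from 0.345 to 2.42.

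Compared by how strongly the promoter was called, Fgf2 ranked ahead in S7KO and Csf1 in WT. The Fgf2 promoter ranked 19.5%, 19.7% and 18.9% in S7KO 1, 2 and 4 and 21.2%, 21.1% and 20.2% in WT 1, 2 and 4. A better rank in every S7KO than in any WT library was found in 5.22% of genes with a promoter peak in all 6. The Csf1 promoter ranked 2.15%, 2.57% and 1.95% in S7KO 1, 2 and 4 and 1.91%, 1.92% and 1.13% in WT 1, 2 and 4, a pattern shared by 1.24% of those genes. Both separations were narrow, 0.542 percentage points between the nearest libraries in Fgf2 and 0.0344 in Csf1. The remaining 8 genes had overlapping ranks.

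The same comparison over the 45 regions called in all 6 libraries found 5 ranked better in every S7KO than in any WT library, against 5.98% of such regions genome-wide, and 1 with the opposite order, the Csf1 promoter, against 1.35%. The Fgf2 promoter was one of the 5, and the other 4 lay outside promoters, 3 of them inside Kitl. The widest Kitl gene body region, described above, ranked 6.69%, 5.42% and 10.5% in S7KO 1, 2 and 4 and 10.9%, 15.2% and 16.5% in WT 1, 2 and 4. S7KO 4 and WT 1 were nearly level there. The Kitl region chr10:100038318-100039850 ranked between 48.2% and 52.0% in S7KO and between 53.0% and 56.6% in WT, and chr10:100064504-100066459 between 37.1% and 54.2% in S7KO and between 55.1% and 70.2% in WT. The upstream Gdnf region (chr15:7803214-7804950) ranked 39.2%, 34.8% and 38.4% in S7KO 1, 2 and 4 and 46.1%, 59.5% and 65.2% in WT 1, 2 and 4, the clearest gap of the 6. Its peak was wider in WT, at 1598, 1598 and 1717 bp in WT 1, 2 and 4. In S7KO 1, 2 and 4 it was 1175, 1462 and 1207 bp wide. The part that width had in this gap was not tested. With 3 libraries a side, none of these regions could pass a test by itself. The 3 Kitl regions belong to 1 gene and are not independent of each other, and the Kitl promoter, at 3.63% to 4.69% in S7KO and 3.13% to 4.99% in WT, overlapped between the genotypes.

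Other genes of the same pathways were open as well. All 24 genes of a list with co-receptors, related ligands, transcription factors and feedback inhibitors had a promoter peak in all 6 libraries. Over all protein-coding genes the share was 74.0%. The GDNF receptor genes Gfra1 and Ret ranked at a median of 29.7% and 11.9%, and Kit, the KITL receptor, at 17.0%. The transcription factors Etv5, a target of GDNF and FGF signals in spermatogonia, and Etv4 had median ranks of 1.495% and 3.44%, on the level of Csf1 and Kitl. Lhx1, another GDNF target, had the weakest promoter of the list at 55.0%. Covered sequence was higher in every S7KO than any WT library for 2 of the 24, beside 6.35% of all genes. These were Fgf9 and Spry1 (an FGF ligand and a feedback inhibitor of receptor tyrosine kinases). None showed the opposite direction, beside 0.508% of all genes. The list's median rank was 13.3%, against 18.6% for the ligands and receptors and 8.04% for all genes with a promoter peak in every library. Its median covered share was 12.1%, against 11.1% for the ligands and receptors and 6.91% for all genes.

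Marker genes were read as promoter calls for the cell types that could be present. For comparison, 74.0% of all protein-coding genes had a promoter peak in all 6 libraries. All 13 markers of undifferentiated spermatogonia and germ cells had a promoter peak in all 6 libraries, among them Zbtb16, which encodes PLZF. So did 8 of 9 Sertoli markers and all 4 peritubular myoid markers. Rhox5 had none in any library. Of 7 Leydig markers, 6 had one in every library and Hsd3b1 had one in WT 4 alone, which gave 6 per S7KO library and 6 to 7 per WT library. Of 7 macrophage markers, 2 had a promoter peak in every library, and Ptprc, Adgre1, Cx3cr1, Fcgr1 and Lyz2 had none in any. Of 4 endothelial markers, 3 to 4 were called per library in both genotypes, with Pecam1 called in S7KO 4, WT 1 and WT 4. Among markers with a promoter peak in any library, the median rank was 15.2% for germ cells, 16.3% for Sertoli cells and 15.3% for myoid cells. It was 34.0% for Leydig cells, 36.5% for macrophages and 24.8% for endothelial cells. An open promoter is not expression, and the part that any of these cell types had in the peaks of the ligand and receptor genes was not tested.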

How the data were processed

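Peak lists of 6 ATAC-seq libraries were analysed. Per the study's methods and the submitters' processing notes, the authors checked reads with FastQC 0.12.1, trimmed them with Trim Galore 0.6.6, aligned them to mm10 with Bowtie2 2.4.4.1, removed mitochondrial reads, shifted read ends for the Tn5 cut and called broad peaks with MACS2 2.2.5. Each library was called separately in the deposited lists. The methods give a fragment length range that starts above nucleosome-free length, while the results text speaks of merged nucleosome-free profiles, and the lists do not settle which applied. The deposited columns gave each peak a display score, a fold enrichment (a ratio to local background) and its p-value and q-value as −log10. They carry no read counts, so the differential test of the authors was not repeated, and values were ranked within 1 list only. The largest deposited q-value was 0.0983.

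Peaks on chromosomes 1 to 19, X and Y were intersected with RefSeq genes of GRCm38.p6 (at least 1 bp of overlap), using Python 3.11.15, NumPy 2.4.6, pandas 2.3.3 and SciPy 1.17.1. The strand came from RefSeq promoters for 17492 protein-coding genes, 8 of the 10 described here among them, and from GENCODE symbols for 3948. Where both gave a strand (15718 genes), 15617 had the same. Exons were not placed. Totals per library were compared by an exact permutation test, which enumerated the 20 ways to split 6 libraries into 3 and 3. The interval code was tested on simulated data.

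The named genes are the 10 ligands and receptors. Named regions are those over each 5′ end, any called in 1 genotype only, and the widest of each gene away from the promoter, and regions outside this rule were chosen after their values were seen. The genes and lists were chosen with earlier results of these data known. Replicates shared numbers across genotypes in both label fields, which differ from each other. Comparisons of ranks between genotypes were added after the lists had been examined and were not tested. Alternatives covered the peak threshold, list length, overlap, flanks, promoter width, merging, single libraries left out and pairing.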

Additional observations from a re-analysis of the deposited data

How the results depend on the processing

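Over 40 alternatives of the tests of promoter peaks, peaks and covered share, 0 turned the sign of a difference, and p ran from 0.1 to 1. The difference in promoter genes was 0 to begin with, so it had no sign to turn. Pairing by replicate number leaves each mean difference as it was, so it could not turn one either. With a promoter of 1 kb the mean was 10 genes in S7KO and 9.67 in WT. Without the WT replicate 2 library, or any other in turn, the difference in peaks ran from 1.67 to 7.83 and that in covered share from 0.213 to 1.40 percentage points, and the difference in genes with a promoter peak was 0 throughout. With replicates 1 and 4 only in both genotypes the covered shares differed by 0.0157 points, and with equal list lengths by 0.628 points and the peaks by 1.67. Of 130 differences of single genes, 4 moved by more than 1 SD and 7 changed sign, and with each library left out Csf1r ran from -0.772 to 1.39 and Kitl from -2.33 to 0.566.

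Counts of separated genes and regions were less stable. Genes with more covered sequence in every S7KO library numbered 0 with equal list lengths, 4 with replicates 1 and 4 only (Fgf2, Fgfr2, Fgfr3 and Cxcr4) and 2 to 4 with each library left out. Those with more in every WT library numbered 1 with replicates 1 and 4 only, and 0 to 1 with each library left out (Kitl, without WT 2). Regions called in S7KO only numbered 1 at a −log10 q of at least 2 (in Fgf2), 1 with replicates 1 and 4 only (in Fgfr2) and 0 to 1 with each library left out, and those called in WT only 0 to 1. The cause was not tested. Regions called in all libraries numbered 45 to 51 with each library left out. Leaving out peaks at the 5′ ends of other protein-coding genes, chosen after seeing the data, left Fgf2 and Fgfr2 as the separated genes.

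Same-numbered libraries correlated by 0.106, -0.00239 and 0.142 in their deviations from the genotype means. Whether they share anything besides the number was not tested. The replicates numbered 4 had the longest list in each genotype (133336 peaks in S7KO 4 and 133695 in WT 4) and the most peaks in the windows (68 and 67). With the replicate block the differences were 4 peaks (exact sign-flip p = 0.25), 0.803 points of covered share (p = 0.5) and 0 promoter genes (p = 1), where 0.25 is the smallest p possible. Depth is unknown, so an absent peak means only that none was called.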
